A study of Mus musculus with 12 samples.

Results

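The interferon regulatory factors (IRFs) were followed in cultured mouse macrophages grown from bone marrow (BMDMs) and exposed to Wnt3a and IL-4, alone and together. The genes examined were Irf1, Irf2, Irf3, Irf4, Irf5, Irf7, Irf8 and Irf9, taken as the entries whose Ensembl identifier maps to these symbols, which gave 8 of the 48526 genes in the count table. All 8 passed the filter on low counts and are among the 12421 genes tested. RNA from BMDMs of 3 mice was sequenced under 4 conditions. The mice were female C57Bl/6J, the bone marrow was grown in medium with m-CSF, and the cells were used on day 7. The 4 conditions were no treatment, Wnt3a at 100 ng/mL, IL-4 at 100 pg/mL and both proteins, with treatment lasting 16 hr. BMDMs are a cultured model of macrophages and carry no genetic change here, and the control cells received neither protein.

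Within a mouse, the deposited columns labelled Wnt3a and Wnt3a+IL-4 share reads. No gene, 0 of 48526, had a Wnt3a count below the Wnt3a+IL-4 count of that mouse or above 2 times it, whereas between 6681 and 8625 genes did so when columns of different mice were paired. A pair of libraries was therefore solved for in each mouse, the difference (Wnt3a column minus Wnt3a+IL-4 column) and the remainder (Wnt3a+IL-4 column minus the difference). Both came from Wnt3a-treated cells, but the labels do not say which also received IL-4. Where this matters, results are given with the remainder taken as the Wnt3a+IL-4 library (the first assignment) and with the difference taken as it (the other assignment). The 12 libraries held between 13342492 and 17453377 counts. Levels are CPM, that is counts divided by library size in units of 1e+06 counts, after TMM scaling, which allows for differences in RNA composition. They are given for each mouse or as the mean ± SD of the 3 mice. As GEO's labels give each library to 1 of 3 mice, p-values measure the spread between these mice. These are bulk samples, in which a change in the number of cells that express a gene and a change in RNA per cell cannot be told apart.

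IRFs are transcription factors that share a DNA-binding domain and recognize GAAA repeats. IRF3, IRF5 and IRF7 wait in the cytoplasm until kinases downstream of pattern recognition receptors phosphorylate them, and then switch on type I interferons and inflammatory cytokines. Interferon in turn acts through the ISGF3 complex, of which STAT2 and IRF9 are subunits, on interferon-stimulated response elements (ISREs), and Irf7 is itself a classical target of ISGF3. IRF1 is an activator and IRF2 an antagonist at many of the same elements. IRF4 and IRF8 bind DNA poorly alone and act with partners such as PU.1 and BATF. In macrophages IRF8 belongs to the lineage program, and IRF4 is known for its link with IL-4.

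The upstream sequences of the members with the largest changes (Irf7 and Irf4), and of those with motif matches (Irf1, Irf2, Irf4 and Irf8), show which letters the windows hold. They are RefSeq sequences of GRCm38.p6, the mm10 build, 5' to 3' on the strand of the gene, and end before the outermost annotated start of the gene. Capitals mark matches to the searched motifs. The stretches are chr11:53769764-53770013 for Irf1, chr8:46739495-46739731 for Irf2, chr13:30748983-30749225 for Irf4, chr7:141266482-141266674 on the minus strand for Irf7, and chr8:120736108-120736357 for Irf8, with Irf1, Irf2, Irf4 and Irf8 on the plus strand.
Irf1: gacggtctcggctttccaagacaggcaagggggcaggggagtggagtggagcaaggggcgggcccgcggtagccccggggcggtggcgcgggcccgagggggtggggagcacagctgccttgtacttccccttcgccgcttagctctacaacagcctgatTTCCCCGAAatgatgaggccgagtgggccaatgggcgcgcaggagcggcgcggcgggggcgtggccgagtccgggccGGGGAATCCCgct
Irf2: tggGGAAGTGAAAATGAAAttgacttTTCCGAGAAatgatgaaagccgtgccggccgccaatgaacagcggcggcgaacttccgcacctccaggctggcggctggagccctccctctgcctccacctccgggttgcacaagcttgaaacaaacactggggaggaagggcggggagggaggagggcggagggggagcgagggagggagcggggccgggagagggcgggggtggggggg
Irf4: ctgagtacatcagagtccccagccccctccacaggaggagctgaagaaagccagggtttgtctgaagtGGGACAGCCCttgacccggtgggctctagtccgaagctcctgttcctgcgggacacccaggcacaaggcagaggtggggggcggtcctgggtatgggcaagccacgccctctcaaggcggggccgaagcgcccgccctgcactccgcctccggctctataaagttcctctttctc
Irf7: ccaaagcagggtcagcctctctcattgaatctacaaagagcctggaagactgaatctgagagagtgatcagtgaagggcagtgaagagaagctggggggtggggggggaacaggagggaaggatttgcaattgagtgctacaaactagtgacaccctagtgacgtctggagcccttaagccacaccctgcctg
Irf8: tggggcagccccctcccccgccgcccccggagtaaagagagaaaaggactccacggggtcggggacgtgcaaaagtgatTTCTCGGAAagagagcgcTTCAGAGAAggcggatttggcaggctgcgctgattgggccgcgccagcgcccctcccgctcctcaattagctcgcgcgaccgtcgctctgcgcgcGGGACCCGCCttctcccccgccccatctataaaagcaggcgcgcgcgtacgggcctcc

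Each of 6 motifs was searched on both strands of the RefSeq windows, which run from 250 bases before to 50 bases after a start, with positions counted from the start as 0. All 8 members had a window, 11 in total, and 32851 windows of all genes gave the background. The ISRE (GAAANNGAAA) was found in Irf2 only, at -241 to -232, and in 3.44% of all windows. It overlaps in Irf2 with a match to the composite element of PU.1 and an IRF (GGAANNGAAA), which 2.72% of all windows hold. The gamma-activated site GAS (TTCNNNGAA) was present in Irf1 at -90, in Irf2 at -224 and in Irf8 at -171 and -153, against 8.3% of all windows. An NF-κB motif (GGGANNNNCC) was present in Irf1, Irf4 and Irf8, and in 20.7% of all windows. The STAT6 motif (TTCNNNNGAA), held by 6.95% of windows, was found in Irf9 only, at 1 base after the start, and the TCF motif (CTTTGA), held by 16% of windows, in none of the 8. Irf3, Irf5 and Irf7 held none of the 6 motifs. Matches are descriptions of letters, and their absence speaks only of these windows.

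**Figure D1:**
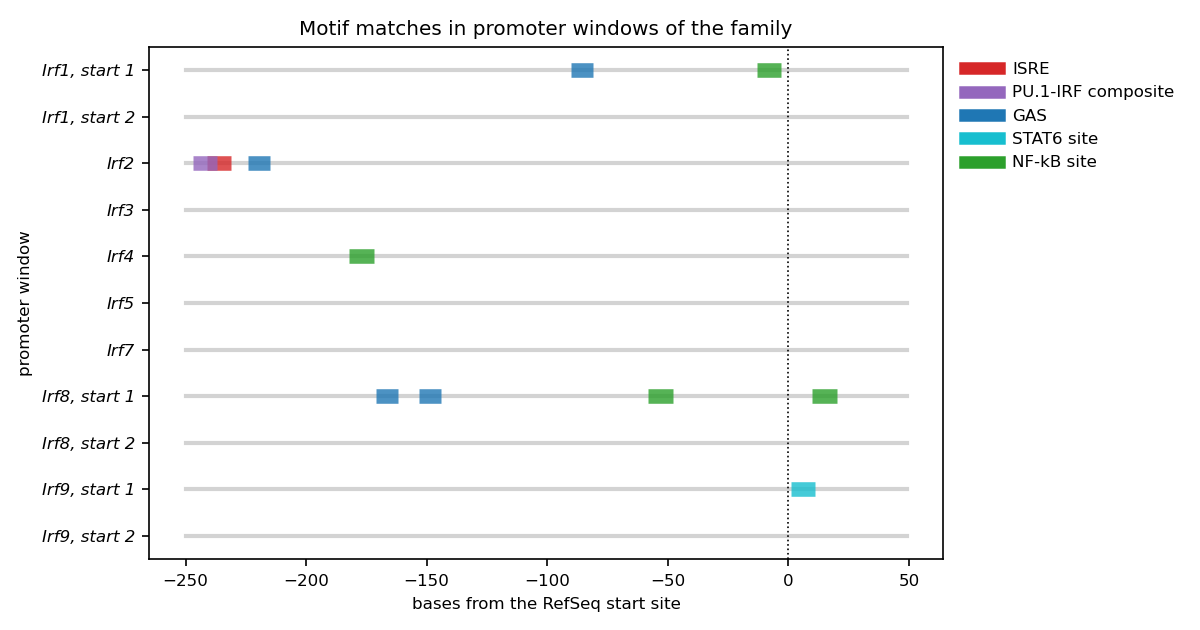
Motif matches in the RefSeq windows of the 8 genes. The x axis gives bases from the annotated start (dotted line), each grey line is 1 of the 11 windows, and coloured blocks are matches on either strand. Irf2 holds the ISRE and the overlapping composite element near its left end, while the Irf7, Irf5 and Irf3 windows are empty.

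In untreated BMDMs Irf5 was the most abundant member per length. Divided by the length of all annotated exons, its level was 136.7 CPM per kilobase (range over the 3 mice 131 to 147), followed by Irf8 at 47.6 (43.2 to 51.2). Irf1 (22.2), Irf3 (18.7), Irf7 (17.8) and Irf9 (17.4) came next on this scale, and each overlapped in range with its neighbour in that order. Irf2 stood below them at 10.4 (9.85 to 10.9), and Irf4 was lowest at 0.91 (0.84 to 1.00). With the longest transcript as the length the values rose, to 41.2 for Irf1 and 96.8 for Irf8 among others, and Irf9 (24.2) passed Irf7.

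The order was different in Wnt3a-treated cells, where Irf7 stood first. Its level per length was 155 CPM per kilobase in the difference and 173 in the remainder, with ranges of 125 to 189 and 145 to 226. Irf5 followed with 98.4 (96.4 to 101) and 109.0 (94.8 to 118), so the ranges of the pair did not overlap in either part. As a share of the summed level of the 8 genes per kilobase, Irf7 made up 6.60% ± 1.41 in untreated cells, 4.91% ± 0.60 with IL-4, 41.0% ± 5.74 in the difference and 41.1% ± 4.86 in the remainder. The summed level itself was 272 ± 12.6 CPM per kilobase in untreated cells, 299 ± 18.2 with IL-4, 374 ± 25.2 in the difference and 416 ± 63.5 in the remainder. The Irf5 share was 50.3% ± 0.88 in untreated cells and 26.4% ± 2.39 in the difference, and since shares add up to the whole, it is not independent of the Irf7 share.

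**Figure D2:**
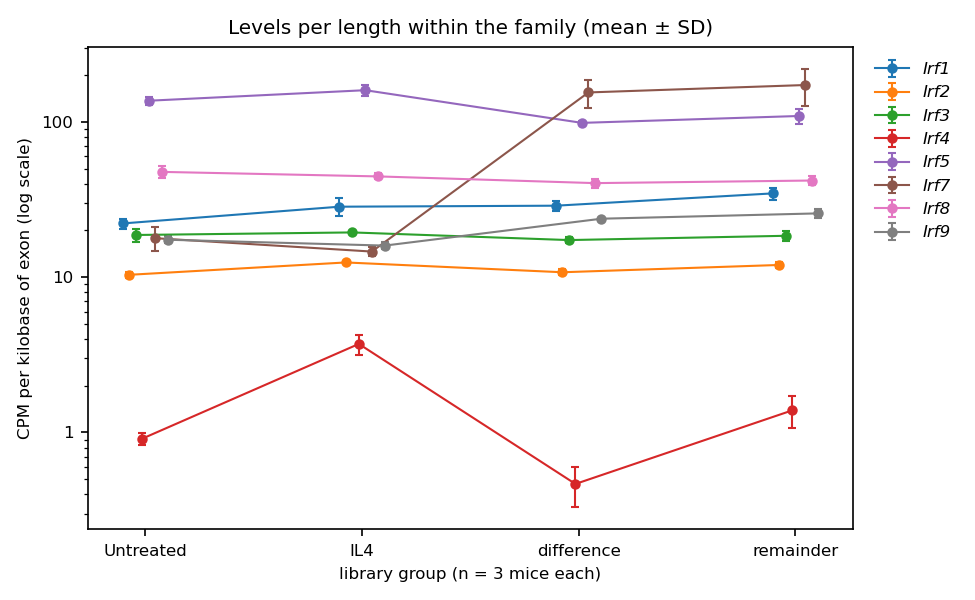
Mean ± SD (3 mice) of each gene in CPM per kilobase of exon on a log scale, by library group. Irf7 moves from 17.8 in untreated cells to 155 and 173 in the difference and remainder, above Irf5, while Irf4 stays the lowest member in all 4 groups.

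IL-4 alone changed 1 of the 8 members. Irf4 rose, while 422 of the 12421 genes tested (3.40%) passed the threshold in either direction and 2.31% rose. In the difference 5 members changed against untreated cells, where 23.2% of all genes tested were called. Irf1, Irf7 and Irf9 were higher (11.8% of all genes) and Irf4 and Irf5 lower (11.4%). In the remainder 6 members changed, where 25.3% of all genes were called. Irf1, Irf2, Irf4, Irf7 and Irf9 were higher (13.6% of all genes) and Irf5 lower (11.7%). The split of called genes depended on the scaling. It was 287 higher and 135 lower with IL-4, 1462 and 1422 in the difference and 1687 and 1450 in the remainder, and with total counts alone 247 and 212, 1133 and 2232, and 1293 and 2340. That scaling placed the median log2 fold change of all genes at -0.10 in the difference and -0.13 in the remainder, against -0.01 and -0.02 with TMM.

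**Figure D3:**
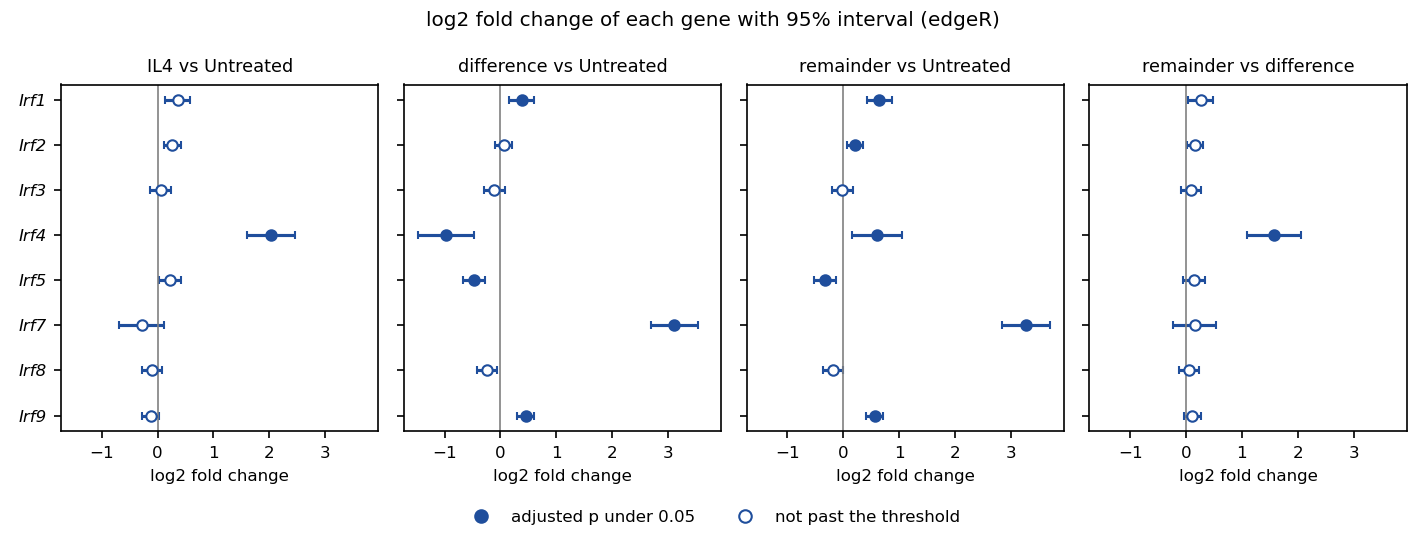
The log2 fold change of each member (x axis) with its 95% interval from edgeR, in 4 comparisons of library groups with 3 mice each. Filled points passed an adjusted p of 0.05, and Irf7 stands at 3.12 and 3.27 in the difference and remainder, far from the other members.

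Irf7, the factor that amplifies type I interferon production, showed the largest change in the family. The gene lies on the minus strand of chromosome 7 (141262706 to 141266481, mm10). Its level in mice 1, 2 and 3 was 76.5, 54.0 and 71.4 CPM in untreated cells and 51.1, 56.7 and 57.7 CPM with IL-4. In Wnt3a-treated cells it was 714, 564 and 474 CPM in the difference and 854, 551 and 549 CPM in the remainder. Every Wnt3a-treated library was thus above every library without Wnt3a, and mouse 1 was the highest in both parts. By edgeR's quasi-likelihood test, the change was 8.67-fold in the difference (log2 fold change 3.12, SE 0.20, adjusted p = 9.07e-08) and 9.67-fold in the remainder (log2 fold change 3.27, SE 0.20, adjusted p = 3.91e-08). With IL-4 alone the log2 fold change was -0.29 with a 95% interval from -0.69 to 0.12, and the groups overlapped. The remainder differed from the difference by 0.16 on the log2 scale, with an interval from -0.23 to 0.54. Phrf1 covers 1.19% of the exon bases of Irf7 on the opposite strand, and its level lay between 80.0 ± 2.26 and 85.3 ± 6.14 CPM in all 4 groups.

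Irf9, the DNA-binding subunit of ISGF3, changed in the same comparisons by a smaller amount. It lies on the plus strand of chromosome 14 (55603571 to 55610030). Its level in the 3 mice was 90.4, 99.1 and 91.8 CPM in untreated cells, 89.9, 87.1 and 81.0 with IL-4, 127, 131 and 127 in the difference and 147, 129.5 and 139 in the remainder. The Wnt3a-treated libraries again lay above all others without overlap. The edgeR log2 fold change was 0.45 in the difference (SE 0.07, adjusted p = 4.31e-04) and 0.56 in the remainder (SE 0.07, adjusted p = 4.98e-05), that is 1.37-fold and 1.48-fold. Rnf31 shares 2.28% of the exon bases of Irf9 on the same strand, where reads cannot be given to 1 gene, and its own level was 56.4 ± 3.68 CPM in untreated cells, 67.4 ± 3.97 in the difference and 77.3 ± 6.36 in the remainder. The part of this overlap in the Irf9 values was not tested.

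Irf1, an activator induced by interferon gamma, was higher in both Wnt3a-treated parts. It lies on chromosome 11 (53770014 to 53778374, plus strand). The 3 mice gave 91.7, 92.2 and 80.5 CPM in untreated cells, 127, 115 and 97.0 with IL-4, 105, 118 and 120.4 in the difference and 151, 128 and 133 in the remainder. Each of the 9 treated libraries stood above the 3 untreated ones, and the remainder was the highest group. The edgeR test gave a log2 fold change of 0.38 in the difference (SE 0.10, adjusted p = 0.0170) and of 0.64 in the remainder (SE 0.10, adjusted p = 3.72e-04). The IL-4 change of 0.36 (SE 0.10) did not pass (adjusted p = 0.0873 by edgeR), though all 3 mice were higher. DESeq2 put the same IL-4 change past the threshold, with an adjusted p of 0.0420. In the difference the call was lost without mouse 2 (0.39) or mouse 3 (0.29), without the untreated library of mouse 3 (0.31) and without the difference library of mouse 2 (0.36) or mouse 3 (0.34).

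Irf2, which competes with IRF1 and whose window carries the ISRE printed above, moved little. It lies on chromosome 8 (46739732 to 46847458, plus strand). Its levels were 72.8, 80.3 and 76.6 CPM in untreated cells, 91.6, 91.6 and 92.7 with IL-4, 81.7, 81.4 and 75.5 in the difference and 88.4, 92.3 and 85.1 in the remainder. IL-4 and the remainder were higher than untreated cells in all 3 mice, whereas the difference overlapped with untreated cells. By edgeR the log2 fold change was 0.26 with IL-4 (SE 0.07, adjusted p = 0.0515) and 0.21 in the remainder (SE 0.07, adjusted p = 0.0368). With the mouse as a replicate block the change in the remainder was again 0.21, with an adjusted p of 0.0556 by edgeR, and the call was also lost in 9 of 15 fits that left out a mouse or a library. DESeq2 called the IL-4 change, with an adjusted p of 0.0143.

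Irf5, which carries signals from MyD88 to inflammatory cytokine genes, was the member that fell in both Wnt3a-treated parts. It lies on chromosome 6 (29526625 to 29541871, plus strand). Its level was 385, 426 and 380.4 CPM in untreated cells, 505, 455 and 433 with IL-4, 280.2, 284 and 294 in the difference and 344, 275 and 331 in the remainder. All 6 Wnt3a-treated libraries lay below all untreated ones, and the 3 IL-4 libraries lay above them. The fall was 1.39-fold in the difference (edgeR log2 fold change -0.47, SE 0.09, adjusted p = 0.0018) and 1.25-fold in the remainder (edgeR log2 fold change -0.33, SE 0.09, adjusted p = 0.0178). The change with IL-4 was 0.23 (interval 0.03 to 0.42, adjusted p = 0.26 by edgeR). The call in the remainder was lost without mouse 2 (-0.17) or mouse 3 (-0.38) or without the untreated library of mouse 2 (-0.27). Tnpo3 covers 14.1% of the exon bases of Irf5 on the opposite strand, and as the strand setting of the counting is not given in the sources used here, reads from that stretch cannot be assigned. Its level was between 61.3 ± 1.02 and 68.0 ± 2.20 CPM in the 4 groups, well below that of Irf5.

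Irf3, the constitutive partner of IRF7 in the first wave of interferon beta transcription, passed the threshold in none of the 6 pairwise comparisons. The gene lies on chromosome 7 (44997648 to 45002848, plus strand). The 3 mice gave 65.5, 70.1 and 57.4 CPM in untreated cells, 66.3, 65.9 and 68.2 with IL-4, 57.2, 59.1 and 62.6 in the difference and 67.5, 58.8 and 64.3 in the remainder, and each treated group overlapped with untreated cells. The intervals of the log2 fold change against untreated cells were -0.13 to 0.24 with IL-4, -0.29 to 0.07 in the difference and -0.20 to 0.17 in the remainder, which leaves room for changes of up to about these sizes.

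Irf8, a factor of the macrophage and dendritic cell lineage, gave lower values in Wnt3a-treated cells that did not pass the test. It lies on chromosome 8 (120736358 to 120756694, plus strand). Its levels were 305, 361 and 341 CPM in untreated cells, 324, 319.6 and 298 with IL-4, 263, 299 and 292 in the difference and 309.6, 272 and 305 in the remainder. The difference lay below untreated cells without overlap, while the remainder overlapped with them. The log2 fold change by edgeR was -0.24 in the difference (SE 0.09, adjusted p = 0.0567) and -0.18 in the remainder (SE 0.09, adjusted p = 0.13). With total counts alone as the scaling both passed, at -0.33 (adjusted p = 0.0017) and -0.29 (adjusted p = 0.0033) by edgeR, on a scale where the median gene also stood at -0.10 and -0.13. Both also passed with the deposited columns, in which the parts are mixed (adjusted p = 0.0103 and 0.0120 by edgeR). Of 23 fits, 4 called Irf8 in the difference and 3 in the remainder.

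Irf4, the partner of PU.1 and BATF that is tied to IL-4 responses, was called by edgeR in all 3 comparisons with untreated cells. It was the only such member, and the only one whose called changes in these 3 differed in direction. DESeq2 called Irf1 in all 3 as well. Irf4 lies on chromosome 13 (30749226 to 30766976, plus strand) and overlaps with no other annotated exon. Its level was 4.40, 4.88 and 4.14 CPM in untreated cells and 21.3, 17.2 and 16.2 CPM with IL-4. In the difference it was 2.57, 1.53 and 2.76 CPM, and in the remainder 8.56, 5.53 and 6.30 CPM. The 4 groups did not overlap, and their order was difference, untreated, remainder and IL-4. The counts behind these levels were 66 to 82 in the untreated libraries, 225 to 355 with IL-4, 25 to 45 in the difference and 90 to 138 in the remainder. IL-4 raised Irf4 4.07-fold (edgeR log2 fold change 2.03, SE 0.20, adjusted p = 4.03e-05), a call kept in all 23 fits. The difference was 1.96-fold lower than untreated cells (edgeR log2 fold change -0.97, SE 0.23, adjusted p = 0.0076), which was lost without mouse 2 (-0.68, adjusted p = 0.0785) or mouse 3 (-1.17, adjusted p = 0.0507). It was also lost when the deposited Wnt3a column, in which the parts are mixed, took the place of the difference (-0.26, adjusted p = 0.355). The remainder was 1.52-fold higher (edgeR log2 fold change 0.60, SE 0.21, adjusted p = 0.0478), close to the threshold. That call was lost in 11 of the 15 fits that left out a mouse or a library, and over all 15 the change ranged from 0.39 to 0.81. It was also lost with total counts alone (0.49) and with only the 2 groups compared in the edgeR fit (0.60, adjusted p = 0.0743), and the deposited Wnt3a+IL-4 column gave 0.0018 (adjusted p = 0.996 by edgeR).

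**Figure D4:**
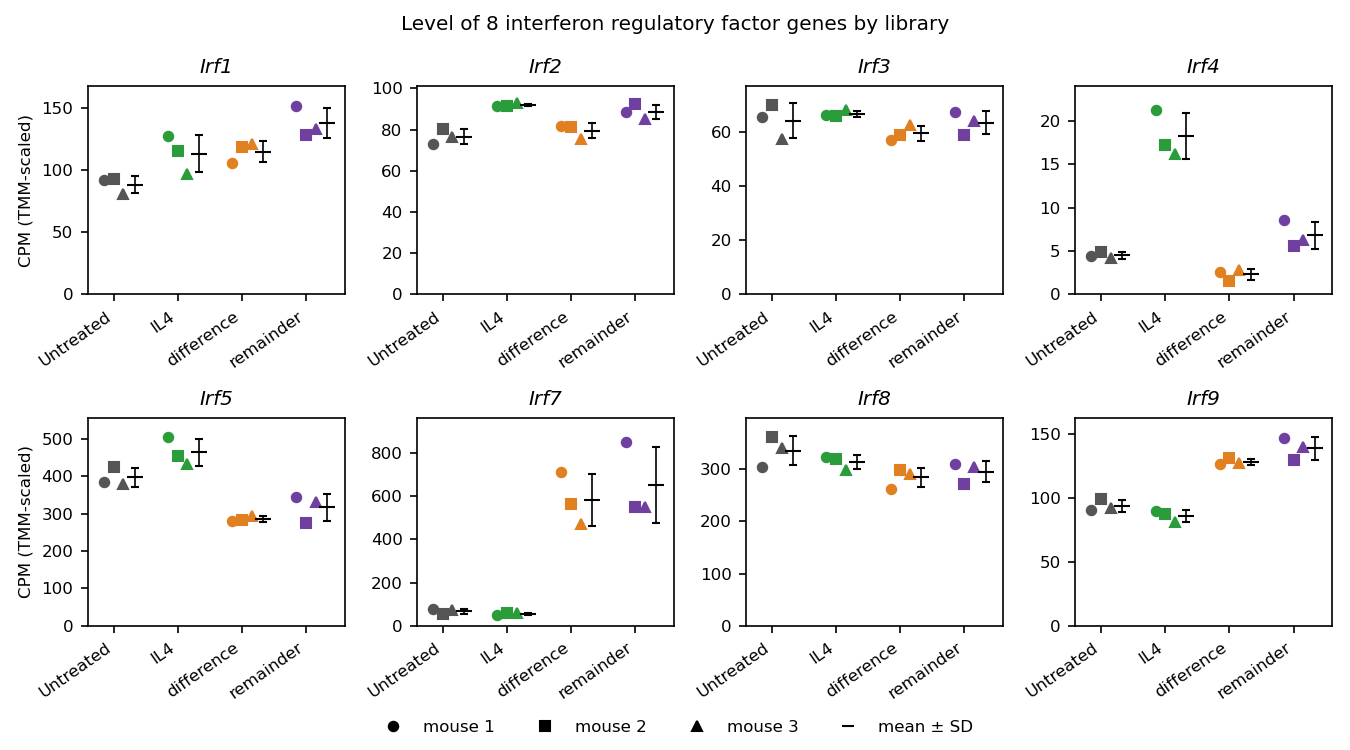
CPM of the 8 genes (y axes from 0) in each library of the 4 groups, with 1 symbol per mouse and the mean ± SD beside them. The Irf7 libraries of the difference and remainder lie between 474 and 854 CPM against at most 76.5 elsewhere, and the 4 Irf4 groups are separate from each other.

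Irf4 also separated the Wnt3a-treated parts from each other. The remainder was 2.98-fold above the difference (edgeR log2 fold change 1.58, SE 0.23, adjusted p = 8.45e-04), higher in 3 of 3 mice. It was the only member called in this comparison, in which 5.25% of all genes tested were called, and the call was kept in all 15 fits that left out a mouse or a library. In the deposited columns as labelled, in which reads of both parts are mixed, the Wnt3a+IL-4 column differed from the Wnt3a column by 0.26 for Irf4, and 0 of the 8 members were called by edgeR.

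Against IL-4 alone, Irf4 was lower in both Wnt3a-treated parts. In the remainder it was 2.68-fold lower (edgeR log2 fold change -1.42, SE 0.19, adjusted p = 1.06e-04) and in the difference 7.99-fold lower (edgeR log2 fold change -3.00, SE 0.22, adjusted p = 2.80e-07). Irf7 and Irf9 were higher and Irf5 was lower than with IL-4 in both parts, and Irf2 was lower in the difference only (-0.21, adjusted p = 0.0446 by edgeR), which gave 4 and 5 called members, where 20.3% of all genes were called in each comparison. With the mouse as a replicate block the Irf2 change was -0.21 with an adjusted p of 0.0655 by edgeR. That Irf2 call was also lost in 13 of 15 fits that left out a mouse or a library. DESeq2 did not call it either (-0.19, adjusted p = 0.0591), and 6 of 23 fits did. These comparisons share the IL-4 libraries, and those above share the untreated libraries, so they are not independent of each other.

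An interaction term tested whether IL-4 acted differently in the presence of Wnt3a. Under the first assignment, in which the remainder is Wnt3a+IL-4, 0 of the 8 members were called by edgeR, where 0.105% of all genes were called, and 1 member, Irf9, had an unadjusted p under 0.05 (0.0364). DESeq2 called 0 of the 8 as well. For Irf4 the IL-4 effect was then 0.45 smaller on the log2 scale in the presence of Wnt3a (interval -1.11 to 0.21). Under the other assignment 3 members were called by edgeR, all with a negative interaction. Of all genes, 7.33% were called in either direction and 4.42% with a negative interaction. The IL-4 effect with Wnt3a is then the difference against the remainder, and it was opposite in sign to that of IL-4 alone. The remainder was above the difference by 1.58 for Irf4, 0.26 for Irf1 and 0.16 for Irf2 on the log2 scale. Among these, only Irf4 was called by edgeR. IL-4 alone gave 2.03, 0.36 and 0.26, where again only Irf4 was called. The interaction was -3.60 for Irf4 (SE 0.30, adjusted p = 3.06e-06), -0.62 for Irf1 (SE 0.15, adjusted p = 0.0178) and -0.42 for Irf2 (SE 0.10, adjusted p = 0.0157) by edgeR. Over 22 fits, the Irf4 call was kept in 22, the Irf1 call in 18 and the Irf2 call in 16. The labels do not decide between the results of the assignments. Of the IL-4 markers, Arg1 was higher in the remainder, with 97 to 402 counts against at most 1 in the difference (adjusted p = 4.60e-05 by edgeR). Ccl17 had 15 to 76 counts against 1 to 13 and was not called (adjusted p = 0.0798 by edgeR), and Retnla had at most 1 count in either part. The deposited columns as labelled mix reads of both parts, which shrinks the contrast between them (0.26 for Irf4). The Irf4 interaction from these columns was -1.76 (adjusted p = 0.0052 by edgeR). It therefore largely repeats the change with IL-4 alone with its sign turned, and cannot decide between the assignments.

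The genes that act upstream and downstream of the family were then read as lists. The lists were chosen with earlier results of these data known, so their counts are descriptions. Of all genes tested, 3.40% were called with IL-4. In the difference 11.8% of all genes rose and 11.4% fell, and in the remainder 13.6% rose and 11.7% fell. Among 23 genes that activate IRFs (pattern recognition receptors, adaptors and kinases), IL-4 lowered 1 and raised 0 by edgeR (2 higher at an unadjusted p under 0.05, and 0 by DESeq2). The gene that fell was Tlr9, an endosomal DNA receptor, from 89.3 ± 8.08 to 60.0 ± 4.74 CPM (edgeR log2 fold change -0.57, SE 0.09, adjusted p = 0.0023). In the difference 6 rose and 2 fell, and in the remainder 5 rose and 2 fell, with list medians of 0.12 and 0.04 on the log2 scale beside -0.01 and -0.02 for all genes. Ddx58, which encodes the RNA sensor RIG-I, rose from 87.6 ± 15.2 CPM in untreated cells to 227 ± 45.9 in the difference (edgeR log2 fold change 1.37, SE 0.15, adjusted p = 1.06e-05) and 211 ± 13.4 in the remainder (1.27, SE 0.15, adjusted p = 1.83e-05). Slc15a4, the lysosomal transporter needed for IRF5 activation by endosomal receptors, fell from 175 ± 4.43 CPM to 124 ± 12.3 and 119 ± 9.26. Tmem173, which encodes STING, stood at 65.8 ± 2.90 CPM in untreated cells, 133 ± 7.65 in the difference and 154 ± 12.2 in the remainder, while the kinase gene Tbk1 gave 87.3 ± 9.13, 97.7 ± 7.52 and 89.9 ± 13.3 and did not pass.

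Interferon transcripts themselves were near or at 0. Of 10 ligand genes (Ifnb1, 4 alpha interferons, Ifne, Ifnk, Ifng, Ifnl2 and Ifnl3), 9 had 0 counts in all 12 libraries and Ifnb1 reached at most 3 counts, so none was tested. At these depths a count of 0 allows up to 3 counts in a library.

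Of 13 genes for interferon receptors, ISGF3 and its regulators, IL-4 changed 0 by edgeR (1 higher and 1 lower at an unadjusted p under 0.05, and 0 by DESeq2). In the difference 6 rose and 1 fell, and in the remainder 8 rose and 2 fell. Stat2, a partner of IRF9, stood at 100.2 ± 8.45 CPM in untreated cells, at 242 ± 43.2 in the difference and at 275 ± 28.7 in the remainder. It passed in each part. Usp18, a negative regulator at the interferon receptor, had the largest rise of the list in the difference, from 23.2 ± 2.08 to 82.6 ± 16.3 CPM (edgeR log2 fold change 1.83, SE 0.18, adjusted p = 5.67e-06). Socs1, an inhibitor of JAK kinases, led in the remainder with 15.2 ± 4.76 against 1.69 ± 0.40 CPM (edgeR log2 fold change 3.15, SE 0.27, adjusted p = 1.30e-06). Ifngr1, the ligand-binding chain of the interferon gamma receptor, fell from 254 ± 8.29 CPM to 162 ± 18.5 in the difference and 139 ± 15.5 in the remainder.

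Interferon-stimulated genes, the usual readout of IRF9 and IRF7 activity, rose widely with Wnt3a. Of 25 tested, 20 rose and 0 fell in the difference by edgeR, and 19 rose and 1 fell in the remainder, with medians of 1.28 and 0.97 on the log2 scale. With IL-4 alone the median was -0.36, and edgeR called 1 lower and 0 higher, against 11 lower and 0 higher at an unadjusted p under 0.05 and 5 lower and 0 higher by DESeq2. Compared with IL-4 alone, all 25 were higher in the difference and 23 in the remainder. Between the Wnt3a-treated parts 0 of 25 were called by edgeR or DESeq2, with 1 lower in the remainder at an unadjusted p under 0.05. Zbp1, a nucleic acid sensor, rose from 22.3 ± 4.66 CPM to 135 ± 28.6 in the remainder (edgeR log2 fold change 2.60, SE 0.20, adjusted p = 3.16e-07), and Ifi44 from 3.32 ± 1.91 to 19.8 ± 7.83 CPM in the difference (edgeR log2 fold change 2.56, SE 0.37, adjusted p = 1.68e-04). The chemokine gene Cxcl10 went the other way, from 8.98 ± 3.27 CPM to 4.03 ± 0.88 with IL-4 (edgeR log2 fold change -1.16, SE 0.28, adjusted p = 0.0338) and 4.14 ± 0.87 in the remainder (-1.12, SE 0.28, adjusted p = 0.0080).

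Genes tied to IRF1, most of them in antigen presentation and the guanylate-binding protein family, rose as a group in Wnt3a-treated cells. Of 20 tested, 19 rose in the difference (11.8% of all genes) and 18 in the remainder (13.6% of all genes). By edgeR, DESeq2 or an unadjusted p under 0.05, 0 were lower in either, and the medians were 1.52 and 1.32. IL-4 raised 2, Cd274 and Ciita, and DESeq2 called 3. Ccl5, a chemokine gene, went from 12.2 ± 1.55 CPM in untreated cells to 2238 ± 144 in the difference and 2040 ± 417 in the remainder (edgeR log2 fold changes 7.52 and 7.38). Ciita, which encodes the master regulator of MHC class II, was 13.8 ± 1.41 CPM in untreated cells, 28.2 ± 4.16 with IL-4 (edgeR log2 fold change 1.03, SE 0.15, adjusted p = 9.23e-04), 57.1 ± 10.4 in the difference and 94.6 ± 10.2 in the remainder. Nos2 was at the floor in untreated cells, with at most 1 count, and had 28 to 157 counts in the difference, at least 30.5-fold higher when 3 counts per library are taken as the floor.

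The list of IRF4-linked and IL-4 genes followed another pattern. Of 14 tested, IL-4 raised 8 and lowered 0 by edgeR (9 and 0 by DESeq2, with 1 lower at an unadjusted p under 0.05). In the difference 4 rose and 3 fell, and in the remainder 11 rose and 1 fell, and the 3 medians were 1.65, 0.14 and 1.83. Several members were at the floor of 3 counts in untreated cells, and with these at their bounds, or left out where both groups were at the floor, the medians were 1.06, 0.38 and 2.16. Retnla, an IL-4 marker, had at most 1 count in untreated cells and 535 to 781 counts with IL-4, at least 232-fold higher, and at most 1 count in either Wnt3a-treated part. Arg1, another IL-4 marker, had at most 2 counts in untreated cells, 19 to 26 with IL-4, at most 1 in the difference and 97 to 402 in the remainder. Ccl22 rose from 0.33 ± 0.09 CPM in untreated cells to 13.8 ± 10.9 in the difference (edgeR log2 fold change 5.33, SE 0.75, adjusted p = 1.40e-04), and Ccl17 was at 0 counts in untreated cells and between 15 and 76 in the remainder, at least 13.1-fold higher. Myc fell from 12.1 ± 1.54 CPM to 2.35 ± 0.22 in the difference and 6.58 ± 0.73 in the remainder. With IL-4 it stood at 20.6 ± 2.30 CPM. Between the Wnt3a-treated parts, 8 of the 14 were higher in the remainder and 0 lower by edgeR and by DESeq2, with 1 lower at an unadjusted p under 0.05. Of all 12421 genes tested, edgeR called 356 higher and 296 lower in this comparison.

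**Figure D5:**
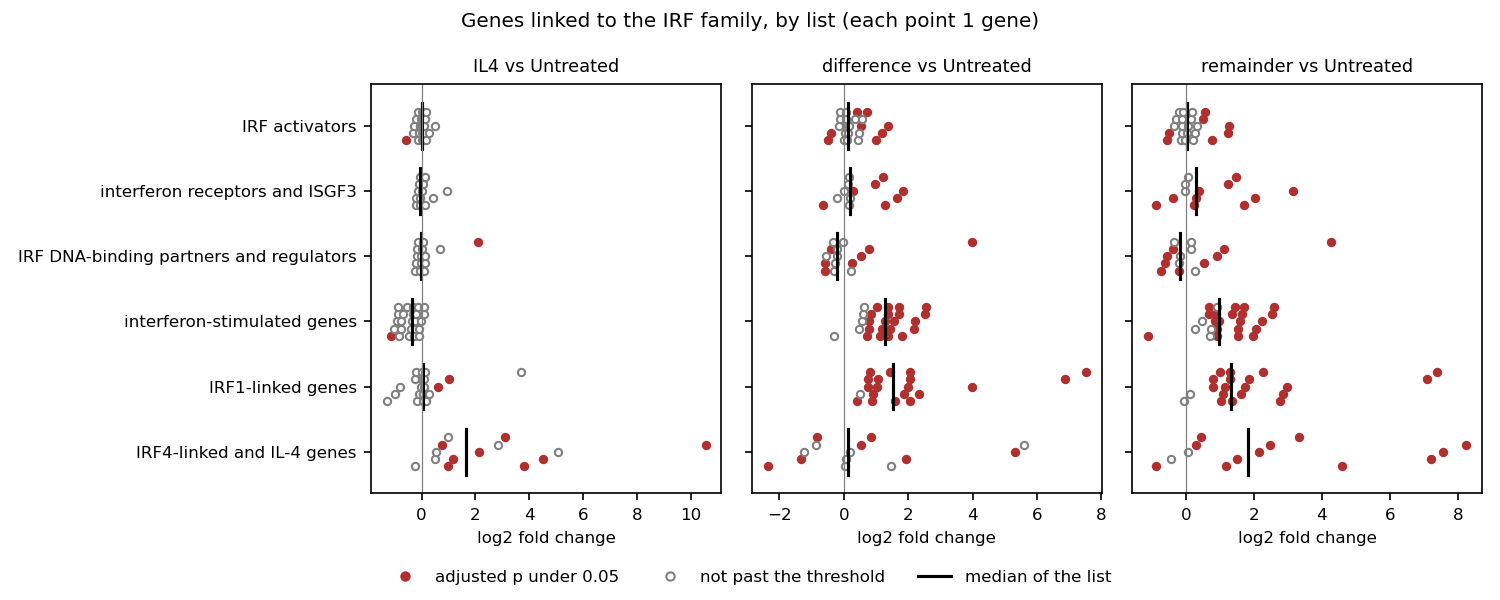
The log2 fold change (x axis) against untreated cells of the genes in 6 lists, 1 point per gene, with filled points past an adjusted p of 0.05 (edgeR) and a bar at the list median. Points of genes at 3 counts or fewer in untreated cells, such as Retnla, Arg1, Ccl17 and Nos2, are fitted values and no bounds. The interferon-stimulated and IRF1-linked genes lie right of 0 in the difference and remainder and around or left of 0 with IL-4, apart from a few.

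Of the proteins that bind DNA with IRFs or regulate them, 15 of 16 were tested. IL-4 raised 1, Batf3, a BATF family member, from 1.60 ± 0.38 to 6.84 ± 0.47 CPM (edgeR log2 fold change 2.10, SE 0.26, adjusted p = 2.41e-04), and lowered 0 by edgeR and DESeq2 (1 at an unadjusted p under 0.05). In the difference 4 rose and 3 fell, and in the remainder 4 rose and 5 fell, with medians of -0.20 and -0.17. Spib, an ETS factor related to PU.1, rose from 0.29 ± 0.24 CPM (2 to 9 counts) to 4.58 ± 1.20 in the difference and 5.50 ± 1.42 in the remainder. Bcl6, a repressor, fell from 132 ± 7.90 to 87.1 ± 7.08 and 78.7 ± 9.87. Spi1, which encodes PU.1, gave 525 ± 62.7 CPM in untreated cells, 549 ± 35.2 with IL-4, 458 ± 22.7 in the difference and 454 ± 52.3 in the remainder. No change of Spi1 against untreated cells passed.

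Cell type markers were read beside these values. The summed level of 8 macrophage markers was 51184 to 58328 CPM in untreated cells, 43944 to 52182 with IL-4, 58352 to 68560 in the difference and 57417 to 57859 in the remainder. By edgeR 4 of the 8 (Adgre1, Cd14, Fcgr1 and Itgam) were higher in the difference than in untreated cells and 2 (Fcgr1 and Itgam) in the remainder, with 0 lower in either, and IL-4 lowered 1 (Cd14). Irf4 and Irf8 are also dendritic cell genes, and 10 dendritic cell markers summed to 73.3 to 85.2 CPM in untreated cells, 211 to 246 with IL-4, 103 to 124 in the difference and 287 to 304 in the remainder. Itgax, which macrophages also express, made up most of this sum with IL-4 and in the remainder, but not in untreated cells. In the same order of groups it stood at 23.1 ± 2.70, 176 ± 22.9, 58.5 ± 3.03 and 244 ± 14.6 CPM. The other 9 markers together lay between 43.5 and 63.5 CPM in every library, with 48.1 to 62.2 CPM in untreated cells. Among these 9, Ccr7, a chemokine receptor of migrating dendritic cells, rose from 0.26 ± 0.11 CPM in untreated cells to 4.04 ± 2.17 in the difference and 11.3 ± 7.34 in the remainder. Zbtb46, a factor of classical dendritic cells, rose from 0.37 ± 0.11 to 1.13 ± 0.51 CPM in the remainder. Tcf4 fell from 54.9 ± 7.78 to 36.7 ± 7.85 CPM there, and Cd209a from 1.09 ± 0.35 CPM to at most 3 counts in either part. Cd8a had 0 counts in all libraries, and Clec9a and Xcr1, markers of cross-presenting dendritic cells, were at most at 4 and 11 counts. B cell markers, which bear on Irf4 too, summed to 76.8 to 84.8 CPM in untreated cells, 34.2 to 46.3 with IL-4, 8.18 to 14.1 in the difference and 8.32 to 9.65 in the remainder, nearly all of it from Ighm. The 8 markers of neutrophils and myeloid precursors summed to 48.8 to 61.1 CPM in untreated cells, 64.6 to 75.1 with IL-4, 35.6 to 56.4 in the difference and 31.9 to 36.3 in the remainder. Against untreated cells, edgeR called 1 of the 6 tested (Ngp) lower in the difference and 4 (Camp, Ltf, Ngp and S100a9) in the remainder. The markers of T and NK cells (7 genes) summed to 1.80 to 5.52 CPM and those of stromal cells (6 genes) to 5.81 to 30.3 CPM over all libraries, and against untreated cells 1 of these, Pdgfrb, was called, higher in the difference. The part of these cells in the Irf values was not tested.

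The genes closest to each changed member were sought by Pearson correlation of log2 CPM over the 12 libraries, among the 9275 tested genes that averaged 5 CPM or more. The values are descriptions, since the libraries fall into treatment groups, with and without Wnt3a or IL-4, and all such pairs share this grouping. For Irf7 they were Zbp1 (r = 0.997) and Dhx58 (0.995), which encodes an RNA sensor of the RIG-I family. For Irf9 they were Cxcl16 (0.988), a chemokine gene, and Adar (0.987), an RNA-editing enzyme. For Irf4 they were Plxdc2 (0.984) and Nab2 (0.963), and for Irf5 Mocos (0.993) and Pqlc1 (0.984). Irf1 had Atp5g3 (0.964) and Nudt19 (0.962) nearest, and Irf2 Arhgap6 (0.921) and Tmem26 (0.920).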

How the data were processed

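The members and gene lists were chosen with earlier results of these data known. Per the submitters' processing notes, single-end reads were trimmed (Trimmomatic 0.36), mapped to mm10 (STAR 2.6.0) and assigned to genes (HTSeq 0.11.1). The deposited values are raw counts, with 0 columns unused. Symbols were given to 48058 of 48526 identifiers, and positions come from the GENCODE annotation of GRCm38. The difference and remainder were solved from the deposited counts. A gene needed 10 counts or more in 3 libraries or more. Tests used edgeR 4.0.16 under R 4.3.3 (quasi-likelihood test, TMM, 1 fit of 12 libraries, Benjamini-Hochberg adjusted p under 0.05), after a test on simulated data. This filter and the columns' shared reads can change calls. Intervals are 95% intervals, and floors cover counting error only. Alternatives were DESeq2 1.42.0 (the authors used 1.24.0), other scalings, no filter, the mouse as block, only the groups compared, the deposited columns and libraries left out. Levels per length used the union of exons.

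The text names all members and, for each list and comparison with untreated cells, the called gene with the largest rise and fall among those with at least 1 CPM. Tmem173, Tbk1, Stat2, Nos2, Arg1, Cd274, Spi1 and the cell type markers were named after their values were seen. Some genes of the lists are not reported here by name. The labels pair libraries by mouse, and deviations from group means of the 18 same-mouse pairs correlated between -0.42 and 0.45, with 6 over 0.1.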

Additional observations from a re-analysis of the deposited data

Results flagged for a closer look

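Under the assignment in which the difference is Wnt3a+IL-4, the effect of IL-4 differed between cells with and without Wnt3a for 3 members by edgeR's interaction test. The log2 interaction was -3.60 for Irf4 (SE 0.30, adjusted p = 3.06e-06), -0.62 for Irf1 (SE 0.15, adjusted p = 0.0178) and -0.42 for Irf2 (SE 0.10, adjusted p = 0.0157). Of 22 fits, Irf4 was called in 22, Irf1 in 18 and Irf2 in 16. Under the first assignment the same members gave -0.45, -0.10 and -0.11 and were not called, and the labels do not say which assignment is right. Arg1, an IL-4 marker, had 19 to 26 counts with IL-4 alone, at most 1 count in the difference and 97 to 402 counts in the remainder. The deposited columns as labelled mix reads of both parts, which shrinks the contrast between them. Their Irf4 interaction of -1.76 (adjusted p = 0.0052 by edgeR) therefore largely repeats the change with IL-4 alone with its sign turned.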

How the results depend on the processing

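Of 1392 values of single members under 22 alternatives, 1272 kept their direction and their side of the threshold, 68 lost the call, 23 gained it and 29 changed sign. The count of called members with IL-4 was 2 with DESeq2's size factors or no filter and 3 with DESeq2 or the deposited columns, against 1. It was 3 in the remainder with only the groups compared (against 6), 0 between the parts with the deposited columns (against 1), 1 for the interaction under the first assignment with no filter or the deposited columns (against 0), and 1 under the other assignment with the deposited columns (against 3). With a mouse or library left out these counts ranged from 1 to 2 with IL-4, 3 to 6 in the remainder and also in the difference, and 1 to 4 for the interaction under the other assignment. The 3 came without mouse 2 or 3 in the difference and without mouse 3 in the remainder, and the 1 without mouse 1 or 3. The cause was not tested. With the mouse as replicate block only the 2 Irf2 calls given above were lost, and no other member's call changed.

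Signs turned only for values that were not called. Irf2 in the difference was -0.032 and Irf1 against IL-4 in the difference -0.012 with total counts alone, and the interaction of Irf3 under the first assignment was -0.036 with the deposited columns. Leaving out libraries gave -0.049 to 0.12 for Irf3 with IL-4, -0.00024 to 0.10 for Irf2 in the difference and -0.10 to 0.11 for Irf3 in the remainder. Between the parts Irf7 ranged from -0.083 to 0.33 and Irf8 from -0.032 to 0.16. Against IL-4, Irf8 ranged from -0.13 to 0.0036 in the remainder and Irf1 from -0.10 to 0.16 in the difference. Interactions ranged from -0.062 to 0.17 for Irf3 and -0.13 to 0.034 for Irf5 under the first assignment, and from -0.033 to 0.38 for Irf7, -0.10 to 0.21 for Irf8 and -0.085 to 0.11 for Irf9 under the other.

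Counts of called genes moved most for IL-4 (422; 812 with no filter, 708 with the deposited columns, 77 without mouse 3), between the parts (652; 1454 with no filter, 0 with the deposited columns, 422 with only the groups compared, 97 without mouse 3 and 1188 without mouse 2) and for the interaction (13; 575 with no filter, 142 with the deposited columns and 165 with DESeq2 under the first assignment, 0 to 43 with a library left out; 910, 1505, 311 and 265 to 1459 under the other). Without mouse 3 the comparisons of the difference and remainder called 1220 and 1375 genes against untreated cells and 1208 and 1043 against IL-4. Counts of 25 to 45 limit the precision of Irf4 in the difference.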
